A study of Homo sapiens with 4 samples.

Results

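Chromosome 18 carried 22613 of the 1000000 peaks of dimethylated histone H3 lysine 9 (H3K9me2) that were listed for 4 libraries of K562 cells, an established human myeloid leukemia line. All listed peaks on the chromosome were taken. They numbered 5836 and 5349 in the 2 CUX1 knockout libraries, against 5875 and 5553 in the 2 HPRT control libraries, out of 250000 peaks in each list. Peaks were assigned by their midpoint to a short-arm segment (0 to 15 Mb), a middle segment (18.5 to 40 Mb) and a distal segment (40 to 78 Mb) on hg19, which held 6546, 10096 and 5956 peaks over the 4 libraries. The remaining 15 peaks lay outside the 3 segments, and no peak was listed from 16 to 18 Mb. The segments were chosen from the deposited coverage itself, so the contrast in density between them is given as a description with no test.

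The knockout libraries came from K562 cells given a CRISPR guide against CUX1, a homeodomain transcription factor, and the controls from K562 cells given a guide against HPRT. The labels call the first group a knock-out, while the peak names carry the tag cux1kd. The peak names of control replicate 1 also carry a tag, sub54, that the labels do not explain, and its effect on the values of that library was not tested. The labels do not say whether the cells of a group were a clone or a pool, or whether the 2 libraries of a group came from separate cultures, and p-values therefore reflect only how far these libraries differ, which may be technical. CUT&RUN was used: permeabilised cells are bound by an antibody to the mark, a nuclease held at the antibody cuts the DNA beside it, and the freed fragments are sequenced. By its title, the series concerns a reduction of this mark under CUX1 deficiency.

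H3K9me2 is written mainly by the methyltransferases EHMT1 and EHMT2 and is read by heterochromatin proteins. It lies in broad domains over silent, late-replicating chromatin, much of it near the nuclear lamina. Chromosome 18 is a small, gene-poor chromosome that tends to lie towards the nuclear periphery, and its long arm carries SMAD4, DCC, BCL2 and TCF4. The RefSeq table used here lists 270 protein-coding genes on it, and fewer on 1 of the 22 autosomes. That table is on GRCh38 and the peaks are on hg19, so genes and sequences were not placed on the segments.

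Coverage, the percent of bases under at least 1 peak, fell steeply at 1 place along the long arm. With the best single break in 100-kb windows, the 2 sides met at 39.6 Mb in knockout replicate 1 and at 39.5 Mb in knockout replicate 2, against 39.6 Mb in both controls. The 4 libraries thus placed the break within 100 kb of each other. In windows of 10 kb from 35 Mb on, it fell at 39.59 Mb in knockout replicate 1, at 39.54 Mb in knockout replicate 2 and at 39.59 Mb in both controls. The boundary of 40 Mb used for the segments therefore left a sparse end of about 0.4 Mb inside the middle segment. The step was read from peak lists alone, without a measure of DNA copy number, and its cause was not tested.

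The step was abrupt in each library. In the last 1 Mb before 39.6 Mb, peaks covered 19.6% and 26.5% in the knockouts and 34.8% and 38.2% in the controls. In the first 1 Mb after it, they covered 2.27% and 3.11% in the knockouts and 4.34% and 4.32% in the controls. Coverage on the near side of the step was thus several times that on the far side in each of the 4 libraries. In neighbouring 100-kb windows, from 39.5 to 39.6 Mb and from 39.6 to 39.7 Mb, coverage was 25.8% and 6.40% in knockout replicate 1 and 15.3% and 8.89% in knockout replicate 2. The same windows had 28.8% and 5.82% in control replicate 1 and 26.0% and 2.01% in control replicate 2. Knockout replicate 2 fell 1 window earlier than the other libraries, with 37.8% from 39.4 to 39.5 Mb.

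**Figure D1:**
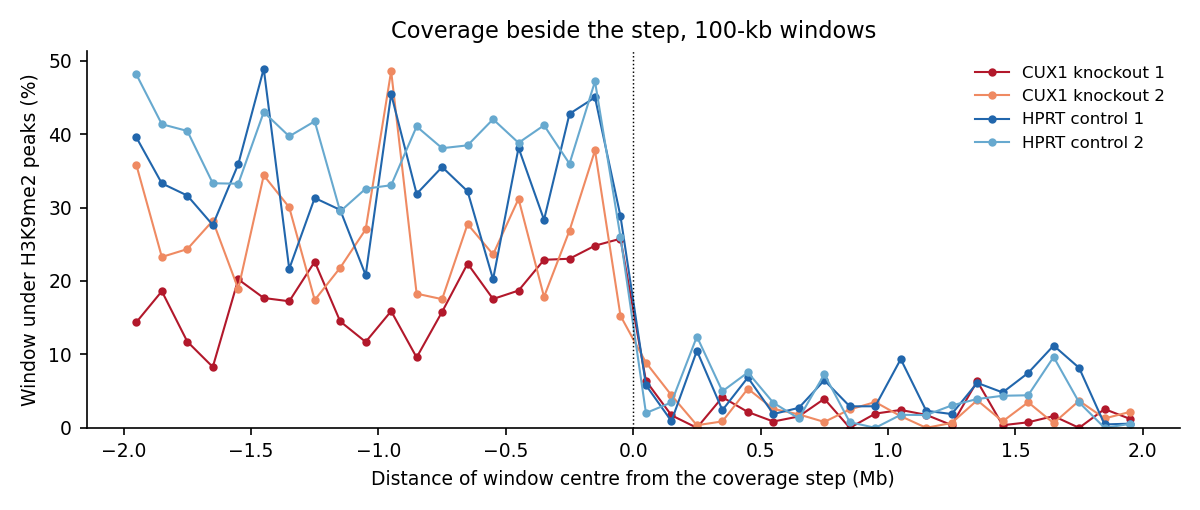
Percent of each 100-kb window under H3K9me2 peaks (y axis) against the distance of its centre from the step at 39.6 Mb (x axis, Mb), with 1 line per library. Red lines are CUX1 knockout libraries and blue lines HPRT controls; all 4 lines are high before the step and low after it, and knockout replicate 1 is the lowest on average before it.

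Among steps of the genome, that on chromosome 18 ranked near the top. The mean of the 4 libraries was compared between the 5 Mb before and after each 1-Mb boundary, and 207 boundaries were the largest of their neighbourhood by ratio. The boundary at 40 Mb had means of 26.1% before and 5.97% after, a log2 ratio of 2.13, and ranked 4 of 207 by ratio and 4 by difference. Larger ratios were found on chromosome 13 at 90 Mb, on X at 88 Mb and on chromosome 22 at 24 Mb. Smaller steps on chromosome 18 lay at 62 Mb, with 7.09% before and 2.74% after (rank 16 by ratio), and on the short arm at 11 Mb, with 31.5% before and 12.8% after (rank 19). The 5 Mb after 11 Mb ran past the end of the short-arm segment to 16 Mb. The window from 15 to 16 Mb, with a mean of 0.448%, thus lowered the second value.

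The middle segment was several times as densely covered as the distal segment in each library. Peaks covered 19.1% and 28.2% of the middle segment in the knockouts, against 35.7% and 36.7% in the controls. They covered 6.59% and 4.89% of the distal segment in the knockouts, against 7.60% and 5.13% in the controls. The fold of middle over distal coverage was 2.90 and 5.76 in the knockouts and 4.69 and 7.15 in the controls, so the fold was lower in replicate 1 than in replicate 2 of either group. The short-arm segment was close to the middle segment, with 19.5% and 26.4% in the knockouts and 32.6% and 32.2% in the controls.

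The distal segment held both fewer and narrower peaks. In the distal segment 53.3 and 36.1 peaks per Mb were listed in the knockouts and 35.9 and 31.5 in the controls. In the middle segment 107 and 112 were listed in the knockouts and 128 and 123 in the controls. Median widths of middle-segment peaks were 1439 and 2132 bp in the knockouts and 2386.5 and 2577.5 bp in the controls. In the distal segment it was 941 and 1060 bp in the knockouts and 1597.5 and 1221.5 bp in the controls. The density of peaks thus differed between the segments by 2.003 and 3.10 times in the knockouts and 3.56 and 3.91 times in the controls, and the width by 1.53 and 2.01 times in the knockouts and 1.49 and 2.11 times in the controls. Peaks of at least 5000 bp held 3.47% and 4.93% of the covered bases of the distal segment in the knockouts and 20.4% and 10.9% in the controls. The same share in the middle segment was 11.3% and 24.9% in the knockouts and 29.7% and 33.0% in the controls.

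**Figure D2:**
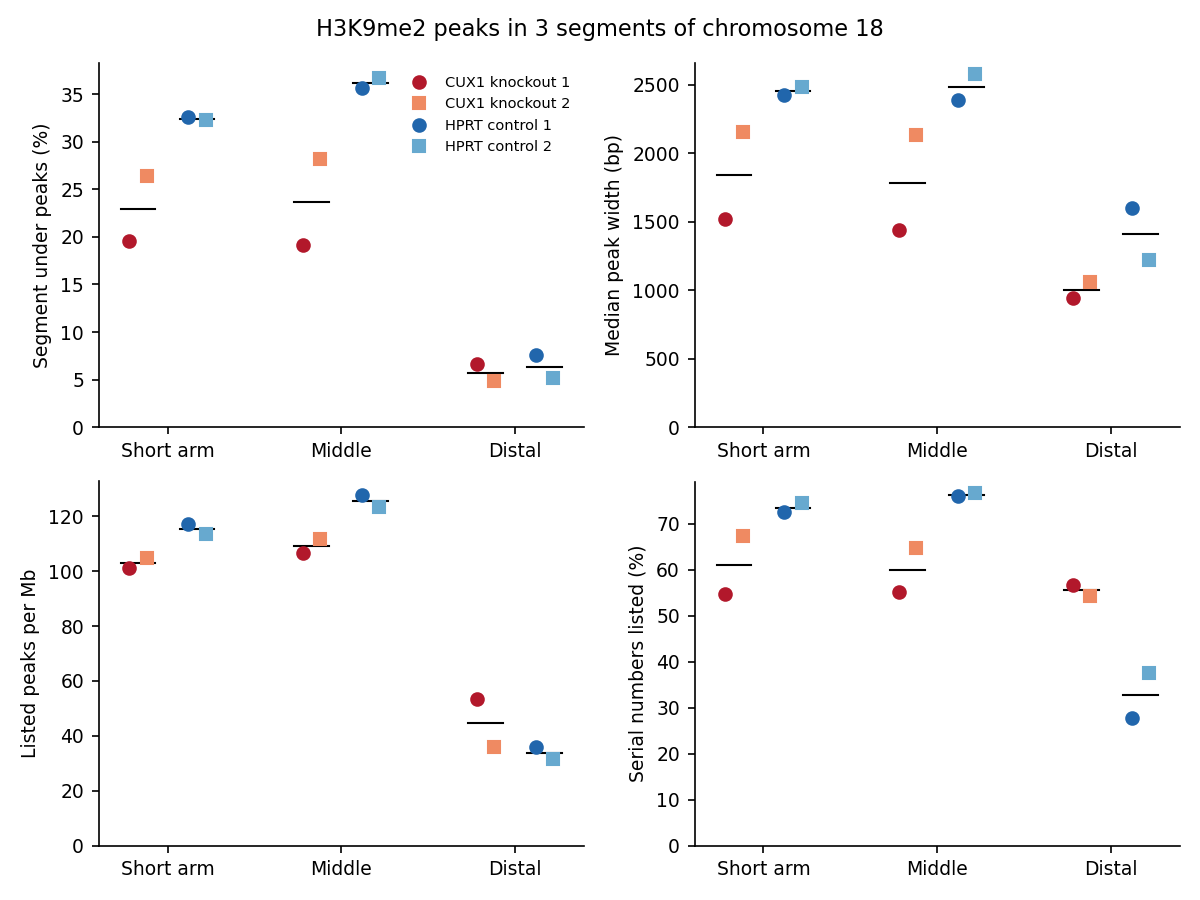
Percent covered, median peak width (bp), listed peaks per Mb and percent of serial numbers listed (y axes) in the 3 segments of chromosome 18, with 1 point per library (circles for replicate 1, squares for replicate 2) and a bar at the group mean of 2. Knockout points (red) stand left of control points (blue); in the distal segment coverage overlaps between groups, while listed peaks per Mb are higher in the knockouts.

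By the caller's fold and −log10 p the listed peaks of the distal segment were not uniformly weaker, while by median −log10 q they were. The median fold over the caller's local background, the authors' value for each peak, was 1.96 and 1.77 in the knockouts and 1.73 and 1.69 in the controls in the distal segment. Among middle-segment peaks it was 1.94 and 1.75 in the knockouts and 1.78 and 1.70 in the controls. In the knockouts 51.3% and 40.99% of the distal peaks belonged to the stronger part of their own list, those at or above its median −log10 p, and in the controls 31.8% and 34.1%. In the middle segment the same shares were 49.3% and 46.7% in the knockouts and 53.7% and 51.9% in the controls. By −log10 p, distal peaks were thus weaker within their list than middle peaks in both controls and in knockout replicate 2, and not in knockout replicate 1. The median −log10 q of distal peaks was 0.0321 and 0.0247 in the knockouts and 0.00789 and 0.0165 in the controls. Among middle-segment peaks it was higher in each library, at 0.0473 and 0.0484 in the knockouts and 0.0161 and 0.0366 in the controls. No peak of the distal segment reached a q of 0.05 in any list, and in the middle segment 0 and 1 did in the knockouts and 0 and 2 in the controls. Few did anywhere: of the 250000 peaks of each whole list, 9 and 460 in the knockouts and 17 and 312 in the controls.

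**Figure D3:**
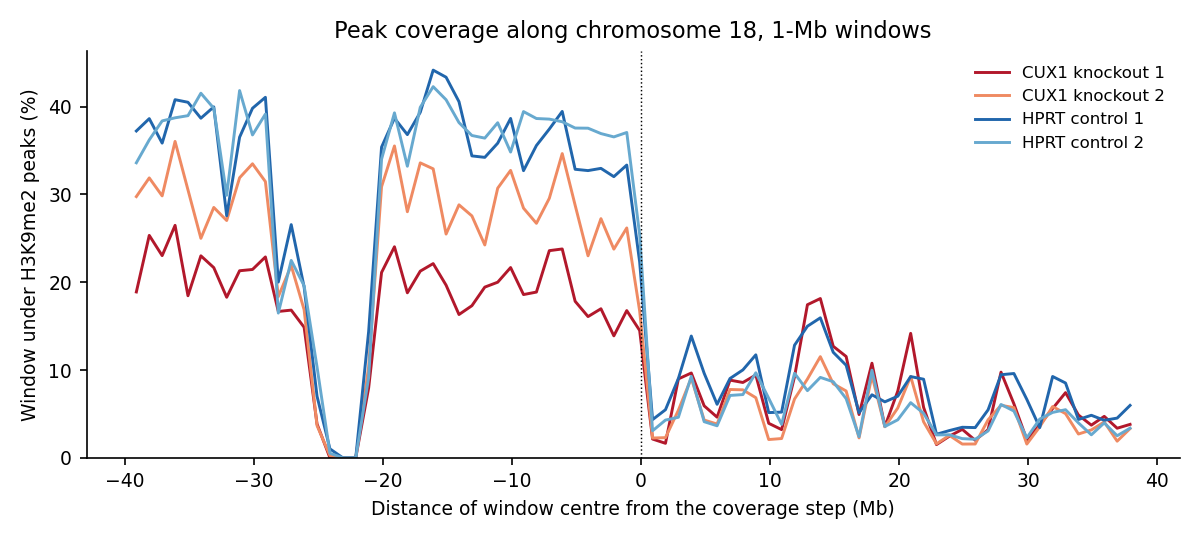
Percent of each 1-Mb window of chromosome 18 under H3K9me2 peaks (y axis) against the distance of its centre from the step (x axis, Mb), with 1 line per library. The 2 knockout libraries (red) lie below the 2 controls (blue) in 14 of 15 short-arm and 21 of 21 middle windows. Beyond the step the lines of the 4 libraries are low and rise and fall at similar places.

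The dense stretches had structure of their own. On the short arm, peaks covered 21.9% and 30.5% of the first 11 Mb in the knockouts and 37.9% and 37.7% in the controls. From 11 to 15 Mb they covered 13.1% and 15.2% in the knockouts and 18.3% and 17.2% in the controls, so the knockouts and controls lay closer there. By the mean of the 4 libraries, the densest 1-Mb windows of the short arm started at 3, 10 and 1 Mb, and the sparsest at 14, 13 and 11 Mb. In the middle segment the densest started at 23, 20 and 33 Mb and the sparsest at 39, 37 and 35 Mb, next to the step. Across the 21 whole 1-Mb windows of the middle segment the SD was 2.93 and 4.42 points in the knockouts and 4.68 and 3.42 points in the controls.

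The distal segment was uneven relative to its level. The coefficient of variation over its 38 windows of 1 Mb was 0.644 and 0.558 in the knockouts and 0.456 and 0.47 in the controls. Over the middle segment it was 0.153 and 0.156 in the knockouts and 0.131 and 0.0922 in the controls. The short-arm segment lay between them in each library, with 0.279 and 0.315 in the knockouts and 0.314 in both controls. From 51 to 62 Mb peaks covered 10.5% and 7.04% in the knockouts and 10.02% and 6.68% in the controls, and beyond 62 Mb 4.23% and 3.41% in the knockouts and 5.57% and 3.61% in the controls. From 40 to 51 Mb they covered 6.09% and 4.90% in the knockouts and 8.14% and 5.78% in the controls. Coverage was thus highest from 51 to 62 Mb in each library. The rise into that stretch was smaller in both controls than in both knockouts. By the mean of the 4 libraries the densest window started at 53 Mb, with 18.1% and 11.5% in the knockouts and 15.9% and 9.16% in the controls. The windows starting at 52 and 43 Mb followed by that mean, and those starting at 62, 65 and 64 Mb were the sparsest. In control replicate 2 the densest window started at 57 Mb, with 9.98%.

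Coverage by window rose and fell together in the 4 libraries along the distal segment, though the densest window was not the same in each. Over its 38 windows of 1 Mb, Pearson's r between libraries was 0.928 for the 2 knockouts, 0.810 for the 2 controls and 0.789 to 0.862 for the 4 pairs of a knockout with a control. Over the 21 windows of the middle segment r was lower, 0.815 for the knockouts, 0.754 for the controls and 0.437 to 0.724 between groups. Over the 15 windows of the short-arm segment it was 0.914 for the knockouts, 0.957 for the controls and 0.849 to 0.942 between groups. The lower r was thus that of the middle segment and not of both dense segments. These values describe windows of 1 chromosome read by the same caller, and windows are not independent. At 100 kb r ranged over the 6 pairs from 0.437 to 0.688 in the distal segment (380 windows) and from 0.257 to 0.483 in the middle segment (215 windows). In the short-arm segment it ranged from 0.579 to 0.747 (150 windows).

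Coverage of the dense segments was lower in the knockout libraries than in the controls in the lists as deposited. The middle segment averaged 23.6% ± 6.42 in knockout and 36.2% ± 0.715 in control cells (SD, n = 2 each); knockout minus control was -12.5 points. The short-arm segment averaged 22.97% ± 4.86 in knockout and 32.4% ± 0.276 in control cells (SD, n = 2 each); knockout minus control was -9.47 points. On both segments the 2 knockout libraries lay below the 2 controls, and knockout replicate 1 lay below replicate 2. Without knockout replicate 1 the differences were -8.00 points on the middle and -6.03 points on the short-arm segment. The two-sided exact permutation p was 0.333 for each, the smallest that 2 libraries against 2 allow. The other autosomes were lower as well, with 14.6% and 20.3% in the knockouts against 23.8% and 23.4% in the controls.

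The distal segment did not separate the groups by coverage. It averaged 5.74% ± 1.20 in knockout and 6.37% ± 1.75 in control cells (SD, n = 2 each), and knockout minus control was -0.62 points, within the spread of either group (exact permutation p = 0.667). Without knockout replicate 2 or control replicate 1 the difference was 0.227 or 0.612 points, in the other direction, and without knockout replicate 1 or control replicate 2 it was -1.48 or -1.86 points. Replicate 1 lay above replicate 2 in both groups.

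Set against the other autosomes of the same library, the middle segment was denser than they were by less in the knockouts. Its log2 coverage relative to them was 0.39 and 0.47 in the knockouts and 0.58 and 0.65 in the controls, a difference of -0.18 (exact permutation p = 0.333, n = 2 each, groups apart). The short-arm segment had 0.42 and 0.38 in the knockouts and 0.46 and 0.46 in the controls, a difference of -0.06 (exact permutation p = 0.333, n = 2 each). The distal segment had -1.14 and -2.05 in the knockouts and -1.65 and -2.19 in the controls, a difference of 0.32 with overlapping groups (exact permutation p = 0.667, n = 2 each). The last difference was -0.14 without knockout replicate 1, 0.77 without knockout replicate 2, 0.59 without control replicate 1 and 0.05 without control replicate 2. The short-arm difference was -0.04 without knockout replicate 2.

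The step itself was lower in the knockouts on average, with overlapping groups. The log2 ratio of middle over distal coverage was 1.53 and 2.53 in the knockouts and 2.23 and 2.84 in the controls, a difference of -0.50 (exact permutation p = 0.667, n = 2 each). When segments stopped 2 Mb short of 40 Mb on each side, the difference was -0.52. Without knockout replicate 1 it was -0.0077, without knockout replicate 2 it was -1.0001, without control replicate 1 it was -0.81 and without control replicate 2 it was -0.20, so the lower average rested on knockout replicate 1. Under the other readings of the lists it was -1.37 to -1.06, with groups apart. By the number of listed peaks per Mb the groups did not overlap, with log2 ratios of 1.002 and 1.63 in the knockouts and 1.83 and 1.97 in the controls (exact permutation p = 0.333, n = 2 each). By median peak width the ratios overlapped, at 0.61 and 1.01 in the knockouts and 0.58 and 1.08 in the controls.

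Listed peaks per Mb moved in opposite directions on the 2 sides of the step. They averaged 109 ± 3.62 in knockout and 125 ± 3.29 in control cells in the middle segment (SD, n = 2 each), and knockout minus control was -16.2. In the distal segment they averaged 44.7 ± 12.2 in knockout and 33.7 ± 3.13 in control cells (SD, n = 2 each). The distal difference was 2.39 without knockout replicate 1 and 19.6 without knockout replicate 2. The groups did not overlap in either segment (exact permutation p = 0.333, the smallest possible, for each). Each list holds 250000 peaks, so fewer listed peaks in dense parts of the genome leave room for more elsewhere. Listed counts on the 2 sides are therefore not independent, and the part of this in the opposite directions was not tested. Distal peaks were narrower in both knockouts than in both controls, by 409 bp between the group means (exact permutation p = 0.333) and by 221 bp without control replicate 1. The narrowest listed peak measured 263 and 339 bp in the knockouts and 362 and 369 bp in the controls, and width divided by it overlapped between groups in the distal segment, with 3.58 and 3.13 in the knockouts and 4.41 and 3.31 in the controls.

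The lists ended at different strengths; the part of this in the results was not tested. Each list ended at 250000 peaks, and the weakest peak had a −log10 p of 1.49 and 1.35 in the knockouts and 1.25 and 1.27 in the controls. Peak names end in a serial number, taken here to run over every peak the caller found; no source given here says so. By that reading 56.8% and 54.3% of the peaks called in the distal segment were listed in the knockouts, against 27.9% and 37.6% in the controls. In the middle segment the same shares were 55.05% and 64.8% in the knockouts and 76.0% and 76.7% in the controls. The controls thus listed a smaller share of distal than of middle peaks, and in the knockouts the shares were closer.

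By serial number the direction of the group difference turned round on both sides of the step. The distal segment held 93.9 and 66.5 called peaks per Mb in the knockouts and 129 and 83.7 in the controls, a difference of -26.1 with overlapping groups (exact permutation p = 0.667, n = 2 each). The middle segment held 194 and 173 called peaks per Mb in the knockouts and 168 and 161 in the controls, a difference of 18.9 with groups apart (exact permutation p = 0.333, n = 2 each). The step was still present, with log2 ratios of middle over distal of 1.05 and 1.38 in the knockouts and 0.38 and 0.94 in the controls. By this count it was thus higher in both knockouts than in both controls, the opposite of the order by listed peaks.

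The step was kept under each other reading of the lists, while the group difference varied with the reading. In the strongest 125000 peaks of each list the middle segment had 8.18% and 11.6% in the knockouts and 17.7% and 18.3% in the controls, with groups apart. The distal segment then had 3.10% and 1.98% in the knockouts and 1.92% and 1.65% in the controls. Reading all lists down to 1 limit of −log10 p (1.49) gave 19.1% and 15.1% in the knockouts and 14.8% and 16.9% in the controls on the middle segment, which overlap. On the distal segment it gave 6.59% and 2.58% in the knockouts and 1.62% and 1.44% in the controls, with the knockouts higher. At equal covered length of 423 Mb per list, the middle segment had 19.1% and 19.2% in the knockouts and 23.6% and 23.5% in the controls. The distal segment then had 6.59% and 3.27% in the knockouts and 3.05% and 2.25% in the controls. At equal length the knockouts were therefore lower on the near side of the step and higher on the far side, with groups apart on each (exact permutation p = 0.333, n = 2 each). The limit of −log10 p and the equal length were both those of the list of knockout replicate 1. That list was thus kept whole in these 2 readings, and only the other lists were cut.

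**Figure D4:**
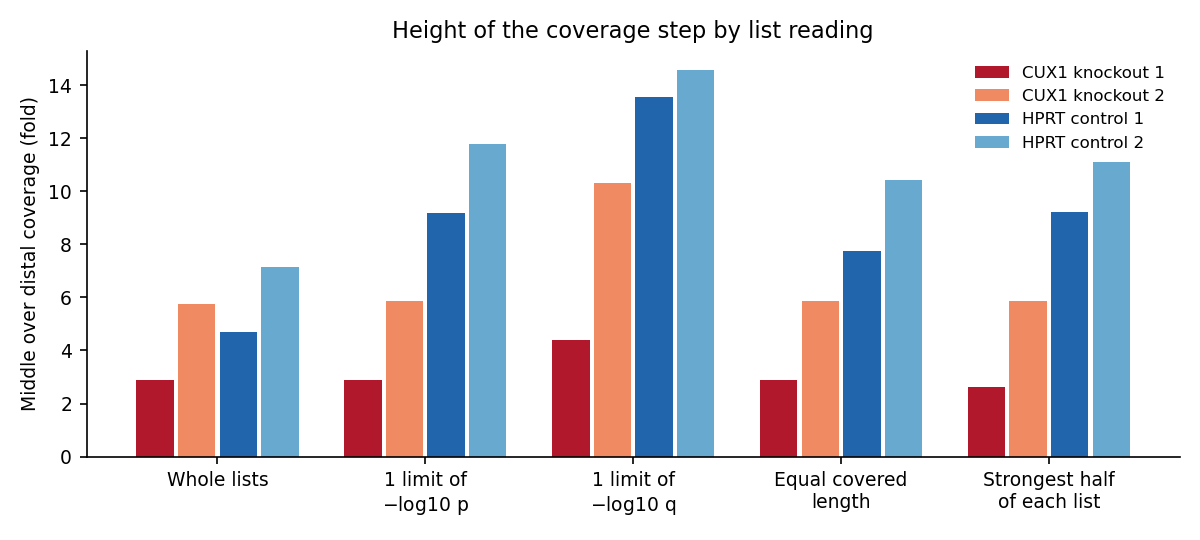
Fold of middle over distal coverage (y axis) under 5 readings of the peak lists (x axis), with 1 bar per library, CUX1 knockout in red and HPRT control in blue. The fold lies between 2.64 and 14.6 over all bars; both knockouts lie below both controls in each reading but that of the whole lists.

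The height of the step varied with the reading of the list. Over the 5 readings the fold of middle over distal coverage ran from 2.64 to 4.41 in knockout replicate 1 and from 5.76 to 10.3 in knockout replicate 2. It ran from 4.69 to 13.5 in control replicate 1 and from 7.15 to 14.6 in control replicate 2. In the strongest 125000 peaks of each list the fold was 2.64 and 5.85 in the knockouts and 9.23 and 11.1 in the controls.

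In windows of 1 Mb, both knockouts lay below both controls in 21 of 21 windows of the middle segment, 14 of 15 of the short-arm segment and 10 of 38 of the distal segment, against 63.8% of 2807 windows of the genome. Both lay above in 0, 0 and 1 of these windows, against 1.46% of the genome. The share was above that of the genome on the dense segments and below it on the distal segment. In windows of 100 kb, both knockouts lay below in 145 of 215, 84 of 147 and 80 of 371 windows, against 43.3% of the genome, and above in 2, 4 and 55, against 4.97% of the genome. On the distal segment 14.8% of the 100-kb windows thus had both knockouts above both controls.

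Few windows of the chromosome passed the test across the genome. In a limma fit of percent covered, 4.17% of the 1-Mb windows of the genome passed (Benjamini-Hochberg adjusted p under 0.05), and 0 in the 3 segments did. At an unadjusted p under 0.05 limma gave 12 windows of the middle, 4 of the short-arm and 3 of the distal segment, with lower coverage in the knockouts in each, against 16.9% of the genome. Without knockout replicate 2, 32 windows passed in the 3 segments and 1733 of 2807 over the genome, and without knockout replicate 1, 14 and 358 did. Without control replicate 1 the counts were 1 and 92, and without control replicate 2 they were 2 and 107. With quantile normalization the median difference over windows was 0.09 points on the short-arm, -3.64 on the middle and 0.90 on the distal segment (0.25 over the genome). It was -10.7, -12.6 and -0.56 without it (-6.33 over the genome), so the direction turned on the distal segment. On the short-arm segment no clear direction was left, with a negative difference in 7 of 15 windows and a median of -0.08 points at 100 kb. The windows with the smallest p did not pass. From 14000001 to 15000000 peaks covered 3.86% and 3.67% in the knockouts and 7.02% and 10.4% in the controls (difference -4.92 points, SE 1.68, limma adjusted p = 0.0771). From 24000001 to 25000000 they covered 19.7% and 25.5% in the knockouts and 43.3% and 40.8% in the controls (-19.5 points, SE 7.08, limma adjusted p = 0.108).

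The other 3 windows of that rank lay in the middle segment too. Those starting at 37000001, 35000001 and 25000001 had differences of -15.5, -15.6 and -16.8 points (limma adjusted p = 0.0833, 0.0901 and 0.147). None of the 5 windows passed here. Each passed in 2 of the 10 other settings, and its highest adjusted p over them was between 0.895 and 1.00; the differences turned positive under 1 limit of −log10 p or q.

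At 100 kb, 0.0981% of the 27532 windows of the genome passed, and 1 in the 3 segments did. It lay on the short arm from 8500001 to 8600000, with 12.2% and 18.8% under peaks in the knockouts and 35.6% and 63.4% in the controls (difference -34.0 points, SE 8.35, limma adjusted p = 0.0495). The widest peak of the short-arm segment in control replicate 2, 13613 bp from 8579162 to 8592774, lay in this window. Without control replicate 2 the difference was -20.1 points (limma adjusted p = 0.501), and without knockout replicate 1 it was -30.7 points (adjusted p = 0.118). Without knockout replicate 2, 79 windows of the 3 segments and 2312 of the 27532 over the genome passed. Without control replicate 2 the counts were 23 and 650, without control replicate 1 they were 7 and 312, and without knockout replicate 1 they were 0 and 9. For the window named, over the 10 other settings, the adjusted p ran from 0.00221 to 0.890, and the difference was negative in each.

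Beside the rest of the genome, the 3 segments lay among parts of like density. The chromosomes were divided into 42 parts, in which chromosome 18 entered as its 3 segments, and the middle segment was the third densest, the short-arm segment ranked 9 and the distal segment 39. The ratio of knockout to control coverage was 0.653 on the middle segment and 0.708 on the short-arm segment, against a median of 0.743 over the 31 other parts with a control mean of at least 12%. On the distal segment it was 0.902, against a median of 0.922 over the 8 other sparse parts. Both groups had replicate 1 above replicate 2 on 7 of those 8 parts, as on the distal segment.

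**Figure D5:**
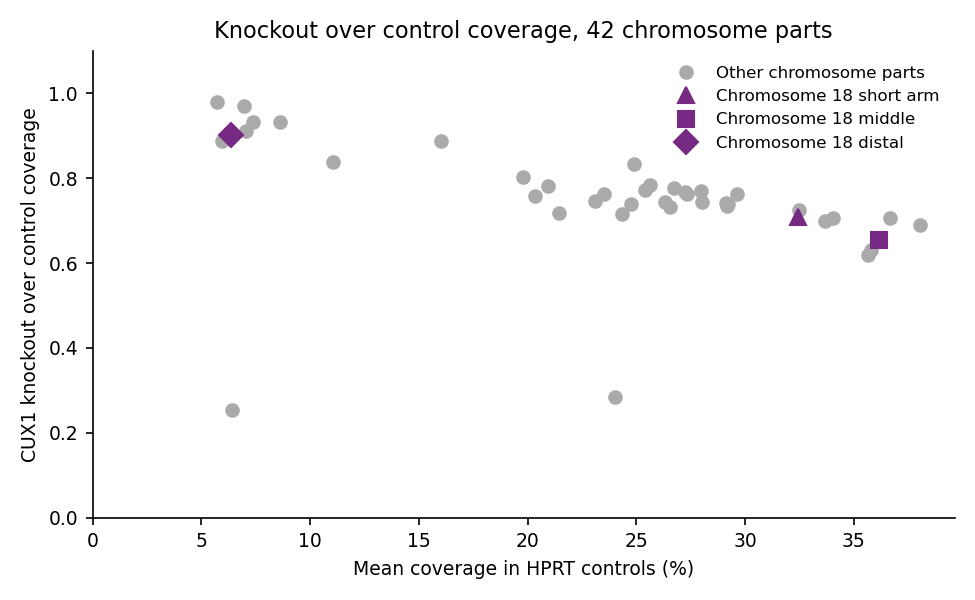
Ratio of mean knockout to mean control coverage (y axis) against mean control coverage in percent (x axis) for 42 chromosome parts, each a point, with the 3 segments of chromosome 18 in purple. Both axes use the control values; the purple points lie among parts of like coverage.

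In a limma fit over the 42 parts of log2 coverage relative to all parts of the library, 2.38% of parts passed and 0 of the 3 segments did. The log2 difference was -0.18 on the middle segment (SE 0.13, limma adjusted p = 0.805), -0.05 on the short-arm segment (SE 0.10, adjusted p = 0.955) and 0.32 on the distal segment (SE 0.32, adjusted p = 0.909). Without knockout replicate 2 the distal difference was 0.70 and passed (limma adjusted p = 0.000377), where 10 of the 42 parts passed in all. Without knockout replicate 1 it was -0.05 (limma adjusted p = 0.919), and the middle difference was -0.06; without knockout replicate 2 the middle difference was -0.30 and without control replicate 2 it was -0.11. The distal difference was 0.56 without control replicate 1 and 0.085 without control replicate 2. So the relative level of the distal segment varied with which library of either group entered, and turned negative only without knockout replicate 1.

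Libraries shared little of the sequence under their peaks on either side of the step. The Jaccard index, the bases covered in both libraries of a pair over those covered in either, was 0.162 for the knockouts, 0.266 for the controls and 0.174 to 0.234 between groups on the middle segment. Placement at random would give 0.128 for the knockouts, 0.221 for the controls and 0.142 to 0.190 between groups. On the distal segment the index was 0.0643 for the knockouts, 0.0631 for the controls and 0.0610 to 0.0744 between groups, against 0.0257 to 0.0366 at random over the 6 pairs. Sharing was thus lower on the distal segment, and 1.99 to 2.74 times the random value there, against 1.21 to 1.26 times on the middle segment.

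Bases under a peak in all 4 libraries made up 1.70% of the middle segment, 2.01% of the short-arm segment and 0.0448% of the distal segment. The products of the 4 coverages were 0.704%, 0.543% and 0.00126%. On the distal segment these bases formed 23 stretches, the longest of 2142 bp from 46662349 to 46664490 and of 2128 bp from 44360202 to 44362329. The longest of 442 middle-segment stretches measured 4842 bp, from 20061411 to 20066252. Bases under both knockouts and neither control made up 0.453% of the distal segment, and those under both controls and neither knockout 0.520%. In the middle segment the same shares were 1.87% and 7.30%, so in the whole lists bases found only in both controls were the larger share on either side. The products of covered and uncovered shares were 0.283% and 0.346% on the distal segment and 2.19% and 7.60% on the middle segment. At equal covered length the distal order turned, with 0.394% under both knockouts only and 0.120% under both controls only. The middle shares were then 1.90% and 3.70%.

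Peak-free stretches were short before the step and long after it. The median gap between peaks in the middle segment was 5422 and 4496.5 bp in the knockouts and 3469 and 3790 bp in the controls. In the distal segment it was 9317 and 15187 bp in the knockouts and 16755 and 18889 bp in the controls. Gaps were thus longer in both knockouts than in both controls before the step and shorter after it. The longest gap of the distal segment was 207914 and 345791 bp in the knockouts and 216146 and 251329 bp in the controls, and it lay at a different place in each library. The widest peak of the middle segment measured 10612 and 16868 bp in the knockouts and 18327 and 18997 bp in the controls.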

How the data were processed

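H3K9me2 was profiled in 4 CUT&RUN libraries, grouped and numbered by their titles. The submitters' processing notes name MACS2 2.1.0, BWA 0.7.17, deepTools 3.5.1 and SAMtools 1.16.1, with hg19 as build. Neither settings nor depth of sequencing are given in these sources, and the precision set by depth is therefore unknown. For each library the authors deposited a broad peak list. Its deposited columns give each peak a score, a fold (a ratio over local background), a −log10 p-value and a −log10 q-value.

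Covered bases, peaks by midpoint and windows were computed with numpy 2.4.6 and pandas 2.3.3 in Python 3.11.15, and exact permutation tests with scipy 1.17.1. Positions count from 1. Windows of chromosomes 1 to 22 and X with a mean of at least 1%, and 42 chromosome parts, were fitted with limma 3.58.1 under R 4.3.3 (moderated by eBayes, using a trend in the case of windows; threshold 0.05 after Benjamini-Hochberg adjustment); the fit was tested on simulated data. A chromosome was split into parts at its longest gap of at least 2 Mb, and parts of at least 5 Mb were kept. Windows named were those that passed, otherwise the 5 with the smallest unadjusted p, with the 3 densest and sparsest per segment; neighbouring windows are not independent. Alternatives were other limits on the lists (1 limit of −log10 p, 1.49; 1 limit of −log10 q, 0.0335; equal covered length; the strongest 125000 peaks), each library left out, a replicate block, quantile normalization, no filter, shifted grids, joined peaks and serial numbers. The segments and lists were chosen with earlier results of these data known.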

Additional observations from a re-analysis of the deposited data

Results flagged for a closer look

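Measures that moved in opposite directions on the 2 sides of the step were singled out because both knockout libraries lay on one side of both controls in the dense segments and on the other side in the distal segment. Listed peaks per Mb were lower in the knockouts on the dense segments and higher on the distal one. The difference between the 2 effects on the log2 scale was -0.55 for the short-arm and -0.58 for the middle segment against the distal segment. The share of serial numbers listed was lower in the knockouts on the dense segments and higher on the distal one, with differences of -1.05 and -1.13. The median gap between peaks was longer in the knockouts on the dense segments and shorter on the distal one, with differences of 1.03 for the short-arm and 1.03 for the middle segment. The 3 measures are read from the same lists and are not independent of each other. Each list also holds 250000 peaks, so fewer listed peaks in dense parts of the genome leave room for more elsewhere. Because the measures were singled out for groups that lie apart in opposite directions, a permutation test of the same libraries adds nothing, and the differences were not tested. Without knockout replicate 1 the higher number of distal peaks per Mb in the knockouts came to 2.39, against 11 with all libraries. The lists end at different −log10 p, which moved with the share listed; its part in these results was not tested.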

How the results depend on the processing

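The step on chromosome 18 was present under each alternative tried for it, between 39 and 40 Mb. Differences of knockout minus control depended on the reading of the lists. Percent covered turned positive under 1 limit of −log10 p (short-arm 2.35, middle 1.19, distal 3.06 points) and under 1 limit of −log10 q (4.68, 3.43 and 1.59 points). On the short-arm and middle segments the groups overlapped under both limits. Under that of −log10 q the middle segment had 13.6% and 20.7% in the knockouts and 7.67% and 19.8% in the controls. The short-arm segment had 15.4% and 20.1% in the knockouts and 7.98% and 18.2% in the controls. The distal segment also turned under equal covered length (2.28) and in the strongest 125000 peaks (0.762). Peaks per Mb of the short-arm segment turned under 1 limit of −log10 p (25.9), 1 limit of −log10 q (28.3), equal covered length (13.5) and serial numbers (12.9), and those of the middle segment likewise (25.6, 26.5, 9.47 and 18.9); those of the distal segment turned by serial number (-26.1). The cause was not tested.

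With 1 library left out, the distal difference ran from -1.86 to 0.612 points and from -0.14 to 0.77 in log2 relative coverage. Among chromosome parts it ran from -0.054 to 0.70 on the distal, from -0.30 to -0.06 on the middle and from -0.11 to 0.0017 on the short-arm segment; a lone library was assumed to vary like the others. By serial number the parts gave 0.16 (short-arm), 0.21 (middle) and -0.34 (distal). Windows past the threshold ran from 1 to 32 at 1 Mb (92 to 1733 of 2807 over the genome) and from 0 to 79 at 100 kb (9 to 2312 of 27532). With no filter on low windows 1 passed at 1 Mb (51 of 3024 over the genome) and 0 at 100 kb (0 over the genome). At 100 kb 0 also passed with quantile normalization, 1 limit of −log10 p or q, equal covered length and a shifted grid. Over the genome 15 of 27516 passed with the shifted grid and 0 in these other settings. Named windows turned under 1 limit of −log10 p (14000001, 0.135; 37000001, 0.0834; 35000001, 0.0004) or of −log10 q (37000001, 2.78; 24000001, 1.95; 25000001, 2.81).

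The mean Jaccard index at equal covered length was 0.170, 0.154 and 0.0425 (short-arm, middle, distal), and requiring 50% overlap of both peaks left 17.3%, 15.6% and 5.01% of peaks shared. The replicate numbers were not shown to pair the libraries: same-numbered libraries deviated from their group means with r = 0.175 at 1 Mb and 0.0561 at 100 kb. With a replicate block 2 windows passed at 1 Mb (229 over the genome) and 3 at 100 kb (172 over the genome). The distal segment among parts then gave 0.32 (limma adjusted p = 0.0138), where 10 of the 42 parts passed in all. Read depth was not given, so the limit it sets is unknown.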
